A study of Rattus norvegicus with 6 samples.

Results

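Cathepsins are the proteases of the lysosome, and the 9 cathepsin genes Ctsa, Ctsb, Ctsc, Ctsd, Ctsh, Ctsk, Ctsl, Ctss and Ctsz together with Cst3, the gene of their secreted inhibitor cystatin C, were followed in rat testis. The 10 genes were taken by symbol from the 35291 genes of the deposited table, where each symbol labels 1 gene. The genes were selected on the difference between the groups in this same table, in which Ctsh was already known to be lower in diabetes, so their group differences are given as descriptions without a test. Whole testes of Sprague-Dawley rats, an outbred strain, were compared between 3 diabetic (DM) and 3 non-diabetic (ND) animals. The DM rats had been fed a high-fat diet for a month and then injected once with streptozotocin (STZ), which destroys pancreatic beta cells, and the ND rats had been injected with citrate buffer. The sources used here do not state the diet of the ND rats, and give the age of the animals only as adult, so diet, STZ and high glucose cannot be told apart. RNA was taken 8 weeks after the injection, and each library was treated as 1 rat, since nothing in the labels speaks of pooling.

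Most cathepsins belong to the papain family of cysteine proteases, which are made as inactive precursors, sorted to the lysosome by mannose 6-phosphate receptors and activated there by cleavage. Cathepsin D is an aspartic protease and cathepsin A a serine carboxypeptidase, so the shared name covers enzymes of different chemistry. Cathepsin S is known from macrophages and other antigen-presenting cells, where it trims the invariant chain of class II molecules, and cathepsin C activates the serine proteases of myeloid granules. In the testis, cathepsin L is known as a product of Sertoli cells that varies with the stage of the seminiferous epithelium, and cystatin C is also secreted there. Cystatins bind the active site of papain-type cathepsins and do not act on the aspartic or serine members.

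Promoter sequence was looked at first, because motifs are a feature that the choice of genes did not use. RefSeq (assembly GRCr8) gave a promoter of 300 bases, 250 before and 50 after the annotated start, for 9 of the 10 genes, and Ctsb had none. Both strands were searched for CACGTG, the E-box bound by TFEB and other basic helix-loop-helix factors, and for its longer form TCACGTGA, which contains it. GAGGAAGT, bound by the myeloid factor PU.1, and CAAGGTCA, bound by the steroidogenic factor SF-1, were searched in the same way. Of the 9 promoters only that of Ctsd held an E-box, at 2 positions, against 6.65% of the 27457 promoters searched. TCACGTGA occurred in 0.867% of all promoters and again in that of Ctsd. The PU.1 motif was found in Ctsc and Ctss and in 2.44% of all promoters. The SF-1 motif was found in none of the 9 promoters and in 1.48% of all. The matches are shown as 30 bases each, 5′ to 3′ on the strand of the gene with the motif in capitals, because they are the only matches among the 9 promoters.
Ctsd, minus strand, chr1:206968814-206968843: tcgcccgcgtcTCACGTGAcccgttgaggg
Ctsd, minus strand, chr1:206968961-206968990: tctttcttccccCACGTGactcgcatccag
Ctsc, plus strand, chr1:151440799-151440828: taACTTCCTCaggccacaggtaattctatc
Ctss, plus strand, chr2:185775368-185775397: aatgaaagttcACTTCCTCgttgtggatac
The capitals in Ctsc and Ctss are the PU.1 motif read on the other strand. In Ctsd the longer E-box began 11 bases and the shorter 157 bases before the annotated start, and the PU.1 motif began 17 bases before it in Ctss and 248 bases before it in Ctsc. A match says only that these letters are present, and binding was not measured.

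Expression was expressed by the authors as fragments per kilobase of transcript and library size (FPKM), which allows levels to be set side by side between genes. All 10 genes reached a mean of 0.5 FPKM over the 6 rats, as did 20338 genes in all. In the ND rats their levels ranged from 63.1 ± 12.7 FPKM (SD, n = 3) for Ctsl to 1.08 ± 0.387 FPKM (SD, n = 3) for Ctsz. Ctsl and Cst3, at 62.8 ± 13.1 FPKM (SD, n = 3), did not differ beyond their spread, since Ctsl was the higher of the pair in 3 of 6 rats. Ctsb followed at 38.9 ± 3.87 FPKM (SD, n = 3), clear of both neighbours in the ND rats. Ctsk at 27.4 ± 6.14 FPKM and Ctsh at 26.2 ± 1.37 FPKM (SD, n = 3 each) overlapped. Ctsd at 13.2 ± 1.69 FPKM and Ctsa at 7.45 ± 0.880 FPKM (SD, n = 3 each) each stood apart from the next gene. Ctss, Ctsc and Ctsz, here called the myeloid cathepsins, were the 3 lowest, at 2.45 ± 0.967, 2.06 ± 0.701 and 1.08 ± 0.387 FPKM (SD, n = 3 each), and each overlapped with its neighbour. The name myeloid is only a label here, since the cells that express these genes were not measured. The order of the 10 genes in the DM rats was the same except that Ctsk ranked above Ctsb.

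**Figure D1:**
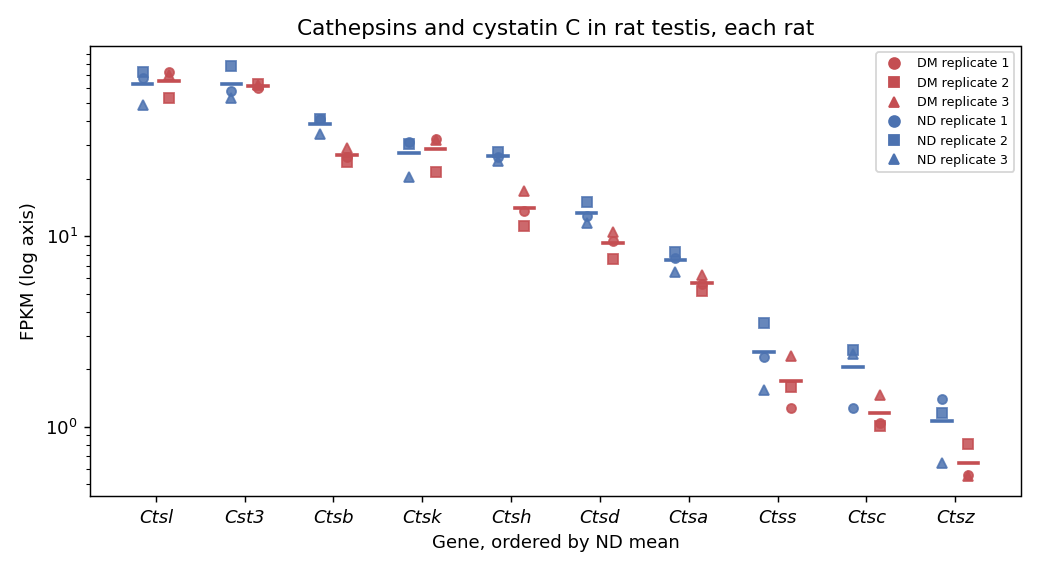
FPKM of each gene in each rat on a log axis, with genes ordered by their ND mean, red marks for DM and blue for ND rats, marker shape for the replicate number and bars for group means of 3 rats. Levels span from Ctsl and Cst3 above 48 FPKM to Ctsz at 1.40 FPKM or less, and red lies wholly below blue for Ctsb, Ctsh, Ctsd and Ctsa.

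Ctsh encodes cathepsin H, a papain-type enzyme that acts mainly as an aminopeptidase. It was at 13.5, 11.3 and 17.2 FPKM in the DM rats and at 26.1, 27.6 and 24.9 FPKM in the ND rats. Every DM rat lay well below every ND rat, and the DM rats were the more spread of the groups. The mean was 14.0 ± 3.01 FPKM (SD, n = 3) in DM and 26.2 ± 1.37 FPKM (SD, n = 3) in ND rats, which is 46.6% lower. On the scale of log2(FPKM + 0.1), used for all log2 fold changes here and understating those of low genes, the difference was -0.92 with a standard error of 0.18. Of all genes tested, 1.98% had a log2 fold change at or below that of Ctsh, and the median over all genes was -0.021. The study counted genes whose log2 value differed by 1 or more in either direction with a p-value below 0.05 before adjustment. Of the 10 genes 0 met this criterion, which 1.24% of the genes tested met in either direction and 0.846% as lower in DM. A p-value below 0.05 before adjustment was reached in limma by 5 of the 10 genes, all lower in DM, and by 7.46% of the genes tested, and nothing is read from either count because the genes were selected on this contrast.

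Of the broadly expressed lysosomal enzymes, Ctsb, Ctsd and Ctsa were also lower in every DM than in every ND rat. Ctsb, the gene of cathepsin B, a cysteine protease with both endopeptidase and carboxypeptidase activity, was at 25.9, 24.6 and 29.2 FPKM in DM and 41.2, 41.0 and 34.4 FPKM in ND rats. The groups stood apart, with a log2 fold change of -0.55 (SE 0.11). Ctsd was at 9.43, 7.54 and 10.5 FPKM in DM and 12.8, 15.1 and 11.8 FPKM in ND rats, a log2 fold change of -0.53 (SE 0.17). The highest DM rat and the lowest ND rat of Ctsd were close together. Ctsa, whose product also protects beta-galactosidase and neuraminidase in a complex, was at 5.63, 5.17 and 6.22 FPKM in DM and 7.67, 8.21 and 6.49 FPKM in ND rats, a log2 fold change of -0.39 (SE 0.13). Here too the groups barely stood apart. All DM rats lay below all ND rats for 4 of the 10 genes, Ctsa, Ctsb, Ctsd and Ctsh, and for 8.42% of all genes tested. For none of the 10 genes did all DM rats lie above all ND rats, which held for 4.56% of the genes tested.

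Each of the myeloid cathepsins was lower in the DM group by mean and overlapped between groups, but their joint level did not. The 3 genes summed to 2.86, 3.44 and 4.36 FPKM in DM and to 4.97, 7.18 and 4.62 FPKM in ND rats, so that every DM rat lay below every ND rat, if narrowly, and their mean log2 level differed by -0.60. Ctsc was at 1.05, 1.01 and 1.46 FPKM in DM and 1.25, 2.52 and 2.40 FPKM in ND rats, a log2 fold change of -0.72 (SE 0.35). A single ND rat, replicate 1, lay within the DM range. Ctsz, the gene of the carboxypeptidase cathepsin Z, was at 0.556, 0.815 and 0.553 FPKM in DM and 1.40, 1.18 and 0.647 FPKM in ND rats, a log2 fold change of -0.62 (SE 0.34). For Ctsz it was ND replicate 3 that fell among the DM rats. Ctss was at 1.26, 1.62 and 2.34 FPKM in DM and 2.32, 3.48 and 1.56 FPKM in ND rats, and its log2 fold change of -0.44 had a standard error of 0.40. The order of the rats was thus mixed for Ctss, with ND replicate 3 below 2 of the DM rats. The place of Ctsh as the gene with the lowest log2 fold change was not stable against these genes. Without ND replicate 1 Ctsc was at -1.02 and Ctsh at -0.92, and without DM replicate 2 Ctsz was at -0.79 and Ctsh at -0.78.

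Ctsl, Ctsk and Cst3 had log2 fold changes near 0, each smaller than its standard error. Ctsl was at 73.1, 53.2 and 69.9 FPKM in DM and 68.0, 72.5 and 48.7 FPKM in ND rats, a log2 fold change of 0.060 (SE 0.23). Ctsk, the gene of cathepsin K, known for the breakdown of collagen in bone, was at 32.5, 21.8 and 31.9 FPKM in DM and 31.4, 30.5 and 20.3 FPKM in ND rats, a log2 fold change of 0.071 (SE 0.27). In both genes DM replicate 2 and ND replicate 3 were low and the other 4 rats lay close together. Cst3 was at 60.0, 62.5 and 62.4 FPKM in DM and 57.6, 77.7 and 53.2 FPKM in ND rats, a log2 fold change of -0.0073 (SE 0.17). The DM rats were nearly alike for Cst3, with a coefficient of variation of 2.33%, against 20.9% in the ND rats.

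**Figure D2:**
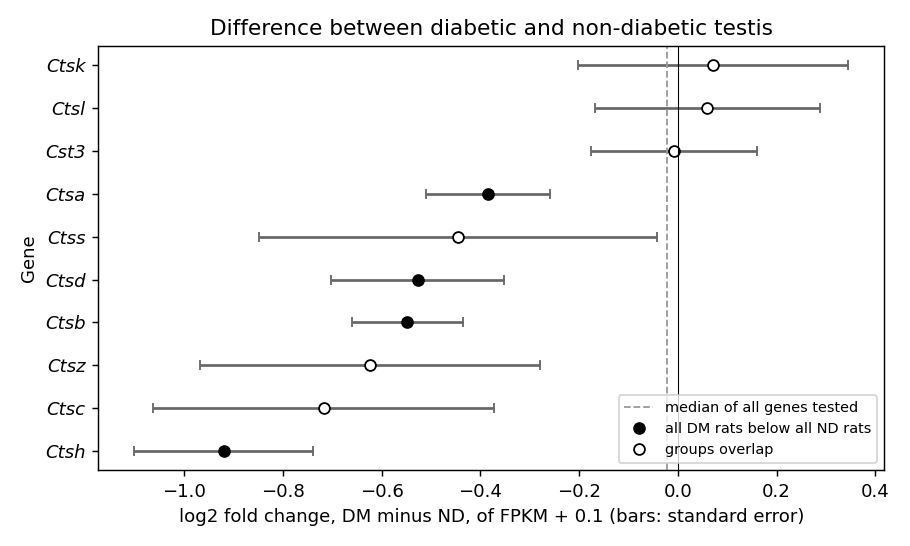
Log2 fold change (DM minus ND) of each gene with its standard error from 3 rats per group, filled where all DM rats lay below all ND rats. Ctsh lies lowest at -0.92 with all rats, the filled genes Ctsb, Ctsd and Ctsa lie between -0.55 and -0.39, and Ctsl, Ctsk and Cst3 lie at the dashed median of all genes tested.

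The sum of the 9 cathepsins was 163, 127 and 169 FPKM in the DM rats and 192, 202 and 151 FPKM in the ND rats, and the groups overlapped. Ctsh made up 8.30%, 8.87% and 10.2% of this sum in DM and 13.6%, 13.7% and 16.5% in ND rats, without overlap. Ctsl took 44.9%, 41.9% and 41.3% in DM and 35.4%, 35.9% and 32.2% in ND rats, so that the mix of cathepsin transcripts differed between the groups in every rat. The ratio of Cst3 to the summed cathepsins was 0.368, 0.492 and 0.369 in DM and 0.300, 0.385 and 0.352 in ND rats, with overlap. These shares follow from the values that chose the genes and carry no test.

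Whether Ctsh moved with the myeloid cathepsins or apart from them was examined as a log2 ratio within each rat. Against the mean log2 level of Ctss, Ctsc and Ctsz, Ctsh stood at 3.76, 3.24 and 3.68 in the DM rats and at 3.95, 3.60 and 4.10 in the ND rats. The groups overlapped, and the difference of -0.32 had a standard error of 0.22. Ctsh was lower by 0.92 and the myeloid mean by 0.60 on the log2 scale, so these 6 rats do not show that Ctsh moved apart from them, nor that both moved alike. Taken singly, the log2 ratio of Ctsh to Ctsc differed by -0.20 (SE 0.31), to Ctsz by -0.30 (SE 0.42) and to Ctss by -0.48 (SE 0.33), with overlapping groups each time. The myeloid cathepsins were low and widely spread, as the ND rats varied by 39.4% (coefficient of variation) for Ctss, 34.0% for Ctsc and 36.0% for Ctsz, and by 5.23% for Ctsh.

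Against the more abundant members, Ctsh separated the groups. The log2 ratio of Ctsh to Ctsb was -0.93, -1.12 and -0.75 in DM and -0.65, -0.57 and -0.47 in ND rats, a difference of -0.37 (SE 0.12). To Ctsd it differed by -0.39 (SE 0.083) and to Ctsa by -0.54 (SE 0.12), in both cases without overlap. The largest differences were against the genes near 0, at -0.98 (SE 0.18) to Ctsl, -0.99 (SE 0.20) to Ctsk and -0.91 (SE 0.22) to Cst3, again without overlap. Within each rat, then, Ctsh was lower relative to 6 of the other 9 genes in all DM than in all ND rats, and the remaining 3 were the myeloid cathepsins. Because Ctsh was selected as lower in DM, these ratios and those to marker lists follow in part from the values that chose it. They carry no test. The ratios to the genes near 0 largely repeat its own log2 fold change of -0.92. How often such ratios separate the groups over all genes was not computed, so nothing is read from the count of 6.

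Markers of cell types were set beside these ratios. All 15 macrophage markers tested, of 18 listed, were detected, and 8 had a lower level in DM at an unadjusted p-value below 0.05 from limma, 0 a higher one, where 4.99% of all genes tested were lower and 2.47% higher at that threshold. Their median log2 fold change was -0.82, against -0.021 over all genes. Tyrobp, an adaptor of myeloid receptors, fell from 1.12, 1.56 and 0.756 FPKM in ND to 0.168, 0.268 and 0.351 FPKM in DM rats, which was -1.76 on the log2 scale (limma, adjusted p = 0.336). Laptm5, a lysosomal membrane protein of blood cells, fell by 1.24 on the log2 scale (limma, adjusted p = 0.190). Csf1r, the receptor for macrophage colony-stimulating factor, had a log2 fold change of -0.80, with groups apart. Cd68 had one of -0.98 (SE 0.37), and its groups barely stood apart. Its highest DM rat was at 0.736 FPKM and its lowest ND rat at 0.754 FPKM. Cd163, a scavenger receptor of resident macrophages, was at 1.52, 2.35 and 2.44 FPKM in DM and 2.26, 2.65 and 2.40 FPKM in ND rats, so its groups overlapped. The summed level of the 15 markers ran from 141 to 149.5 FPKM in DM and from 124 to 172 FPKM in ND rats, most of it from Aif1, whose mean was 105 FPKM in DM and 87.5 FPKM in ND rats, with overlap and a log2 fold change of 0.29 (SE 0.21). The next most abundant, Mrc1 at 20.8 and 21.6 FPKM, had a log2 fold change of -0.064 (SE 0.10), and Adgre1, the F4/80 antigen, one of -0.13 (SE 0.18), both with overlap. These were named after their values were seen. Without Aif1 the sum was 36.1 to 43.3 FPKM in DM and 49.6 to 57.8 FPKM in ND rats. In whole tissue, fewer cells of a type and less RNA per cell cannot be told apart.

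The log2 ratio of Ctsh to the mean of the macrophage markers was 3.02, 2.49 and 3.20 in DM and 3.09, 3.05 and 3.19 in ND rats. The groups overlapped, and the difference was -0.21 (SE 0.22). This mean includes Aif1, which had a log2 fold change of 0.29, and a ratio without Aif1 was not computed. To the 6 class II presentation genes tested it differed by -0.061 (SE 0.41), again with overlap. This value rests on Ciita, the transactivator of class II genes, which was at 4.86 FPKM in ND replicate 1 and between 0.052 and 0.141 FPKM in the other 5 rats. Without Ciita, left out after its values were seen, the difference was -0.25 (SE 0.31) and the groups still overlapped. The ratio without Ciita was 2.99, 2.13 and 3.09 in the DM rats. RT1-Db1, a gene of that list, was at 4.12 FPKM in DM replicate 2 and between 0.394 and 1.55 FPKM in the other 5 rats. A ratio without RT1-Db1 was not computed. Cd74, the invariant chain that cathepsin S degrades, was at 3.56, 4.29 and 3.30 FPKM in DM and 8.57, 9.32 and 6.18 FPKM in ND rats, or -1.08 on the log2 scale (limma, adjusted p = 0.190). Of these 6 genes, 3 were lower at an unadjusted p-value below 0.05, Cd74, RT1-Da at -1.06 and RT1-Ba at -0.98, and 0 were higher. At that threshold 4.99% of all genes tested were lower and 2.47% higher.

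Leydig cells make testosterone, and 8 of their 9 markers tested were lower in DM at an unadjusted p-value below 0.05 from limma, 0 higher. Over all genes tested 4.99% were lower and 2.47% higher at that threshold. The median of the 9 markers was -1.26 on the log2 scale. Cyp17a1, a steroidogenic enzyme, had a log2 fold change of -1.60 (limma, adjusted p = 0.0415), the only 1 of the 9 below 0.05 after adjustment. Insl3 was at -1.62 and Hsd3b2 at -1.69 (limma, adjusted p = 0.484 for each). Star, the cholesterol carrier of mitochondria, was at -1.24 (limma, adjusted p = 0.551). The summed level of the 9 markers ran from 40.7 to 68.9 FPKM in DM and from 115 to 152 FPKM in ND rats. The remaining marker, Nr5a1, a transcription factor of steroid-producing cells, was at -0.016. Ctsh was less reduced than the mean of these markers. Its log2 ratio to it was 1.89, 1.80 and 1.72 in DM and 1.54, 1.43 and 1.50 in ND rats, a difference of 0.31 (SE 0.060) with groups apart. Of the 5 ratios to lists, this one had the smallest spread between rats, with an SD of 0.086 in DM and 0.058 in ND rats. Both Leydig and macrophage markers were lower together with Ctsh, and their part in its level was not tested.

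Sertoli cell markers differed little. Of 10 tested, 1 was lower at an unadjusted p-value below 0.05 from limma, Inha, the inhibin alpha subunit, at -0.34, and 0 were higher. With shares of 4.99% lower and 2.47% higher over all genes tested, nothing is read from a count of 1. The median of the list was 0.078 on the log2 scale, and its summed level was 368 to 391 FPKM in DM and 324 to 402 FPKM in ND rats. Sox9, a transcription factor of Sertoli cells, had a log2 fold change of 0.056 and Clu, which encodes the secreted chaperone clusterin, one of 0.10. Ctsl and Cst3 were close to this list and Ctsh was not, as its log2 ratio to the Sertoli mean differed by -0.99 (SE 0.20) without overlap. None of the 5 peritubular, 3 endothelial and 6 germ cell markers tested with limma had an unadjusted p-value below 0.05, and their medians were -0.16, -0.15 and -0.042. Summed levels of DM and ND overlapped for all 3 lists.

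**Figure D3:**
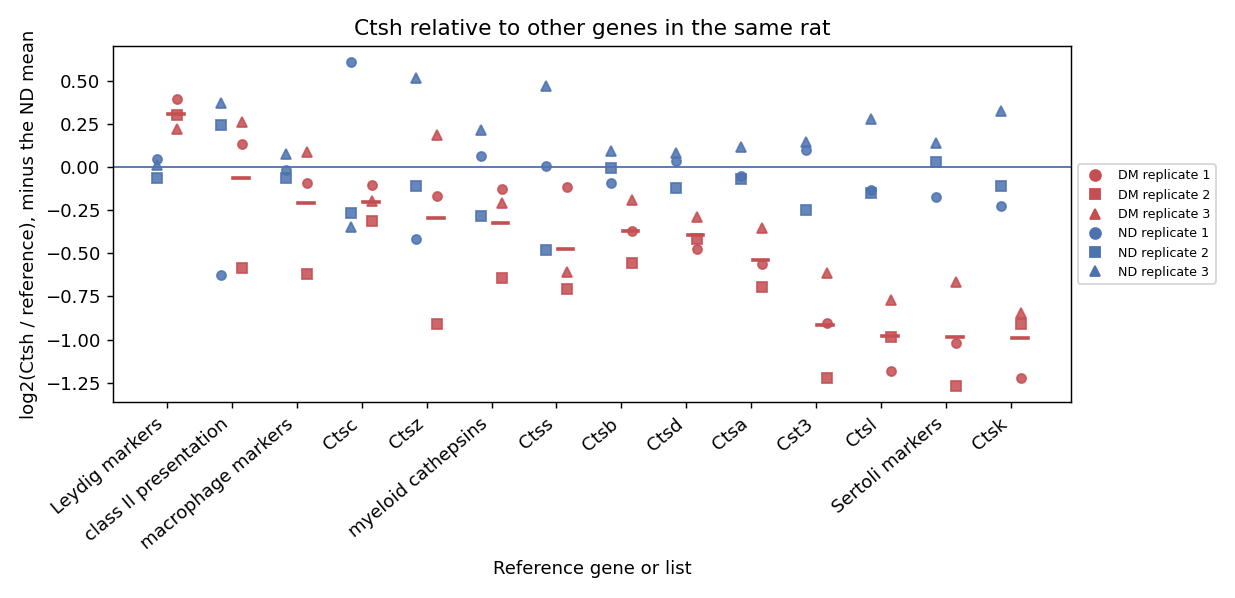
Log2 ratio of Ctsh to each other gene or to the mean log2 level of a marker list within the same rat, set to 0 at the ND mean, with red marks for DM and blue for ND rats and a red bar for the DM mean. DM rats lie above ND rats only for Leydig markers, overlap with them for macrophage and class II lists and the myeloid cathepsins, and lie below them for the other references.

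The rest of the pathway was compared from lists that hold none of the 10 genes. Among other cathepsins, 10 of 12 listed had a row and only Ctsf reached the filter, at a mean of 3.75 FPKM in DM and 4.10 FPKM in ND rats and a log2 fold change of -0.11 (SE 0.12). Of the other 9, 5 were listed at 0 FPKM in every rat. Among the other cystatins and inhibitors, 8 of 15 in the table were tested, 1 was lower at an unadjusted p-value below 0.05 from limma and 0 were higher. That gene was Cstb, the intracellular inhibitor cystatin B, at 14.3, 12.4 and 11.2 FPKM in DM and 18.2, 19.4 and 14.6 FPKM in ND rats, a log2 fold change of -0.46 (SE 0.16, limma, adjusted p = 0.509). The groups did not overlap for Cstb. Over all genes tested 4.99% were lower and 2.47% higher at the unadjusted threshold, so nothing is read from a count of 1.

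Genes for the sorting and maturation of cathepsins showed no common direction. Of 9 tested, 1 was higher and 0 lower at an unadjusted p-value below 0.05. Since 2.47% of all genes tested were higher and 4.99% lower, nothing is read from this count. Nagpa, the enzyme that uncovers the mannose 6-phosphate signal, was at 2.31, 2.62 and 2.49 FPKM in DM and 1.60, 2.02 and 1.41 FPKM in ND rats, a log2 fold change of 0.55 (SE 0.15, limma, adjusted p = 0.551), with groups apart. Lgmn, the gene of legumain, which can process cathepsin precursors, had a log2 fold change of 0.078 (SE 0.14).

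Of 23 lysosomal enzymes and membrane proteins, all tested, 4 were lower and 0 higher at an unadjusted p-value below 0.05, and the list's median was -0.11 on the log2 scale. The shares over all genes tested were 4.99% lower and 2.47% higher. The count of lysosomal genes past that threshold was 1 without ND replicate 2, 2 without DM replicate 2 and 6 without ND replicate 3. Among them Glb1, the beta-galactosidase that cathepsin A protects, was at -0.38 and Lipa, the lysosomal acid lipase, at -0.34 (limma, adjusted p = 0.546 and 0.633). Cd63, a tetraspanin of late endosomes, was at -0.28 (limma, adjusted p = 0.436). Lamp1, a main protein of the lysosomal membrane, had a log2 fold change of -0.072 (SE 0.057). All DM rats lay below all ND rats for 7 of the 23 lysosomal genes and above them for 0. Over all genes tested these shares were 8.42% and 4.56%.

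**Figure D4:**
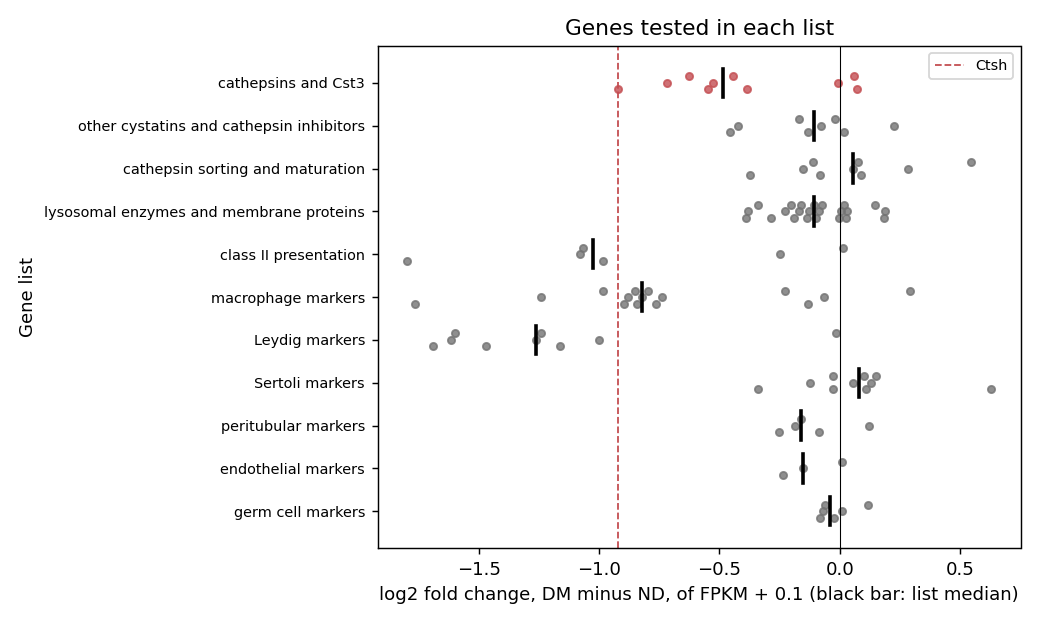
Log2 fold change (DM minus ND) of every gene tested in each list, with black bars for list medians and a dashed line for Ctsh at -0.92. The macrophage, class II and Leydig medians of -0.82, -1.03 and -1.26 lie nearest to Ctsh, while the lysosomal median is -0.11 and the Sertoli median 0.078.

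Variation between rats of the same group was not used to choose the genes. Ctsa, Ctsb, Ctsd, Ctsh, Ctsk and Ctsl were each lowest in DM replicate 2 among the DM rats and lowest in ND replicate 3 among the ND rats. That held for 6 of the 10 genes and for 13.5% of all genes tested, a comparison chosen after the values were seen. It held for 0 of the 3 myeloid cathepsins, for 7 of the 23 lysosomal genes and for 3 each of the 15 macrophage, 9 Leydig and 10 Sertoli markers. Among the 5 peritubular markers it held for 3, the same share of 60.0% as among the 10 genes, and it held for 3 of the 9 sorting genes and 2 each of the 6 class II genes and 6 germ cell markers. As deviations from the group mean on the log2 scale, DM replicate 2 was at -0.28 for Ctsl and -0.37 for Ctsk, and ND replicate 3 at -0.35 and -0.40. Of the 6 genes, Ctsh deviated least in ND replicate 3, at -0.074. Ctsc was lowest in ND replicate 1, at -0.61, where Ctsz was at 0.41. So the abundant cathepsins shared both of their lowest rats. Ctsc shared DM replicate 2 as its lowest DM rat, and Ctss and Ctsz shared ND replicate 3 as their lowest ND rat. With 3 genes and a share of 13.5% over all genes, nothing is read from the count of 0. The low rats were also those with the lowest relative depth in each group, 0.966 for DM replicate 2 and 0.893 for ND replicate 3 against a mean of 1, and the part of depth was not tested.

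**Figure D5:**
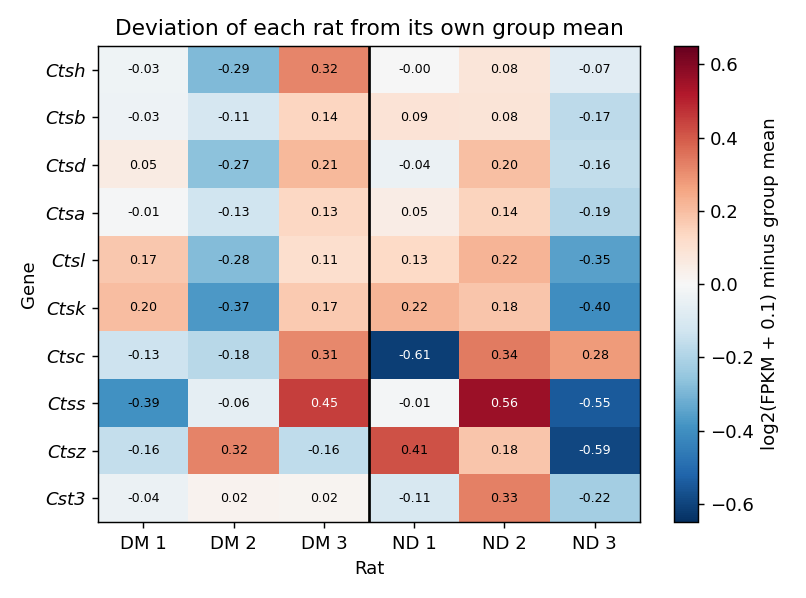
Deviation of each rat from the mean of its own group, as log2(FPKM + 0.1), with genes as rows, rats as columns and a line between the groups. DM 2 and ND 3 are the lowest rats of their groups for Ctsh, Ctsb, Ctsd, Ctsa, Ctsl and Ctsk. Both are also below 0 for Ctss. The lowest rats are DM 2 and ND 1 for Ctsc, DM 1 and ND 3 for Ctss and DM 3 and ND 3 for Ctsz.

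The genes closest to Ctsh over the 6 rats were named by Pearson's r of log2(FPKM + 0.1) among the 8902 other genes that averaged 5 FPKM or more. They were Bgn, the proteoglycan biglycan (r = 0.999), Acaa2, an enzyme of mitochondrial fatty acid oxidation (r = 0.996), Ces1d, a carboxylesterase (r = 0.993), B2m, the light chain of class I molecules (r = 0.989), and Prpf3, a splicing factor (r = 0.988). With 6 points that fall into 2 groups, such values mostly follow the group difference and are a description only. Mean levels in ND and DM rats were 10.3 and 5.78 FPKM for Bgn, 18.0 and 9.89 FPKM for Acaa2, 81.0 and 29.7 FPKM for Ces1d and 21.2 and 10.6 FPKM for B2m. Prpf3 was at 14.0 and 12.1 FPKM. Among the members r with Ctsh was 0.969 for Ctsb, 0.956 for Ctsd and 0.934 for Ctsa, 0.780 for Ctsc, 0.636 for Ctss and 0.564 for Ctsz, and between 0.105 and 0.123 for Ctsl, Cst3 and Ctsk.

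Over all genes tested, 253 passed the study's criterion, of which 172 were lower in DM, and 7 genes, 0.0344% of them, were below 0.05 in limma after adjustment. The columns summed to 453304 to 478211 FPKM. The number of reads is unknown, but the relative depth read from genes under 1 FPKM lay between 0.966 and 1.09 in DM and 0.893 and 1.02 in ND rats. Correlations of log2 values across genes were 0.958 to 0.965 within and 0.957 to 0.966 between groups, so no library stood apart.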

How the data were processed

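RNA-Seq of whole testis from 3 DM and 3 ND Sprague-Dawley rats was used, with groups and replicate numbers from the sample titles. Per the study's methods and the labels, the authors used BWA to screen out rRNA, STAR for alignment and StringTie for assembly. FPKM per gene, as deposited by the authors, are the only values, and the genome build and tool versions are not given in the sources used here. The study's DESeq2 screen needs counts and could not be repeated.

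On log2(FPKM + 0.1), the 20338 genes that averaged 0.5 FPKM or more were fitted with limma 3.58.1 (lmFit, eBayes with trend) under R 4.3.3. Tests were two-sided, and p-values were adjusted over all these genes by Benjamini-Hochberg. Standard errors are those of the linear model, before moderation, or of a difference of group means for ratios. Sums, ratios and figures were made in Python 3.11.15. The genes and lists were chosen with earlier results of these data known. Named were the 10 genes, in each list up to 3 genes with the largest change at an unadjusted p-value below 0.05, fixed markers of each cell type and the 5 genes most like Ctsh, and 1 lysosomal gene that this rule names is not reported here. Relative depth came from the commonest ratio between samples among genes under 1 FPKM, shared by 31 to 55 genes per pair. Alternatives were the pseudocount, the filter, median-ratio scaling, eBayes without trend, a replicate block, protein-coding genes only, and leaving out each rat.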

Additional observations from a re-analysis of the deposited data

How the results depend on the processing

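The count of genes past the criterion was 253. A pseudocount of 1 gave 91, no filter 621 and protein-coding genes only 85, while leaving out each rat gave 246 to 335. The log2 fold change of Ctsh was -0.92 and ran from -1.08 to -0.78 with each rat left out and from -0.92 to -0.88 under the alternatives run for it that kept all rats. All DM rats lay below all ND rats for 4 of the 10 genes, beside 8.42% of all genes tested, and for 4 to 5 with each rat left out. With fewer rats groups separate more easily, and the share over all genes is not given for those fits. Nothing is therefore read from the counts with a rat left out. The difference in the log2 ratio of Ctsh to the myeloid cathepsins was -0.32. It ran from -0.47 to -0.17 with each rat left out, the smallest without DM replicate 2. A pseudocount of 1 gave -0.51 and one of 0.01 gave -0.29. Of the listed pathway and marker genes 26 had an unadjusted p-value below 0.05, and 20 to 29 with each rat left out. The log2 fold changes of Ctsl, Ctsk and Cst3 changed sign among the fits that left out a rat, running from -0.12 to 0.20, from -0.13 to 0.26 and from -0.12 to 0.16, and that of Cst3 was 0.017 under median-ratio scaling. That of Ctsc ran from -1.02 without ND replicate 1 to -0.55 without ND replicate 2, that of Ctss from -0.72 without ND replicate 3 to -0.17 without ND replicate 2, and that of Ctsz from -0.92 without ND replicate 3 to -0.42 without ND replicate 1. With a pseudocount of 1 they were -0.47, -0.32 and -0.33. Ctsz has no value with a mean of 1 FPKM or more, since its own mean is lower. The replicate numbers are shared by different rats, and same-numbered rats had correlations of their deviations of 0.106, 0.015 and 0.098, so they were not taken as pairs. With the replicate block 284 genes passed the criterion, 24 listed genes had an unadjusted p-value below 0.05, and the log2 fold changes and the ratio were equal to those without it. Where a count moved, the cause was not tested.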
